A study of Mus musculus with 42 samples.

Results

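Hippocampal neuronal cultures from Fmr1KO and WT mice accounted for 10 of the 42 arrays of the series, 5 per genotype. They were chosen by the labels alone, which name the hippocampus, neuronal culture and the genotype, and the 10 arrays were analysed without the others unless another system is named. Both genotypes were C57BL/6 congenic, and their embryos were taken at 17 to 18 days post conception. The dissociated cells matured for 14 days in vitro and received no treatment. The KO mice carry the disrupted Fmr1 gene in every cell from conception, and a sample is a pool of littermates, so it stands for a culture of several embryos and not for an animal. The cells were not sorted, and the study's methods speak of glia among the neurons. Arrays are named here by genotype and by the mouse ID of the label, with the KO arrays given in the order 2037, 2038, 2221, 2620 and 4236 and the WT arrays in the order 2236, 2643, 2644, 3569 and NT. The remaining arrays, cortical cultures and the embryonic hippocampus and cortex from which cultures were made, serve only for comparison.

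Fmr1 encodes FMRP, an RNA-binding protein that sits on many neuronal messages and holds back their translation, and its loss causes fragile X syndrome. In the hippocampus the group I metabotropic glutamate receptors act through Gq proteins and phospholipase C, and through the RAS to ERK and PI3K to mTOR routes, on protein synthesis at the synapse, a process that runs in excess when FMRP is missing. Cultured hippocampal neurons of this age have axons, dendrites and synapses, and they grow on and among astrocytes.

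The values are RMA signals from Affymetrix whole-genome mouse expression arrays, on a log2 scale, so that a difference of 1 is a 2-fold change. RMA is a background correction with quantile normalization and a summary over the probes of each probe set. Where a gene had several probe sets, that with the highest mean over the 42 arrays was used, which gave 18193 genes. A gene was counted as above background when its higher group mean passed 5.15, the 95th percentile of 123 probe sets of genes for odorant and pheromone receptors and hair keratin-associated proteins, and 11892 genes did (65.4%). A gene is called higher or lower in KO at an unadjusted limma p under 0.05, the threshold of the study's methods. The p printed for a single gene is that of the two-sided exact permutation test over the 10 arrays, whose smallest possible value is 0.00794, so a called gene can have an exact p above 0.05. Both tests measure the spread among these pooled cultures.

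Neuronal and glial markers matched the labels. The neuronal genes Map2 and Snap25 had mean signals of 12.69 and 12.49 in KO and 12.64 and 12.47 in WT, and the astrocyte gene Slc1a3 had 10.42 and 10.38. The defining markers of microglia (Aif1, Cx3cr1, C1qa) and of endothelium (Cldn5, Pecam1) were below background in both genotypes. The choroid plexus gene Ttr was at 10.08 in KO and 10.17 in WT, well above background in both. None of the 21 defining markers passed the test between genotypes. The 10 arrays correlated with one another at 0.976 or more. WT 2644 stood furthest from the rest, with a mean correlation of 0.983 against 0.987 to 0.992 for the other arrays, and list counts and medians that it moved most are also given without it.

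The targeted gene was the clearest difference. Fmr1, at chrX:68678536-68717963 of GRCm38.p6, had signals of 8.04, 7.88, 8.10, 8.07 and 7.97 in the KO arrays and of 8.96, 9.01, 9.17, 8.69 and 8.95 in the WT arrays. The groups did not overlap. Fmr1 fell by 0.94 (SE 0.09) on the log2 scale, or 1.93-fold, with an adjusted limma p of 0.006, and the exact permutation test over the 10 arrays gave its smallest possible two-sided p of 0.00794. A second probe set fell by 0.39, from 5.22 in WT to 4.83 in KO, which is below background, with an exact permutation p of 0.00794. The last, at 6.10 in WT and 5.95 in KO, did not pass (exact permutation p = 0.151). The KO signal of the main probe set stayed well above background, and where the probe sets lie relative to the disrupted part of the gene is not given in the sources used here. The Fmr1 paralogs encode RNA-binding proteins of the same family. Fxr1 differed by 0.02 (95% interval -0.22 to 0.26) and Fxr2 by -0.09 (-0.39 to 0.22), and neither passed. Of 12 measured genes for FMRP, its paralogs and its partners, Fmr1 was lower and Nufip1, which encodes a nuclear FMRP-interacting protein, was higher by 0.18 (exact p = 0.0238). Nufip1 lost its call without KO 2037, KO 2221, KO 4236, WT 2236 or WT 3569.

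The bases before the start of Fmr1 are shown because the gene is the one altered by design and all other values hang on it. They are the 250 bases before a RefSeq transcript start of Fmr1, at chrX:68678291-68678540 of GRCm38.p6, plus strand, 67.2% G or C. RefSeq lists more than 1 start, and the window reaches 5 bases into the gene span given above. It is printed with an E-box (CACGTG) in capitals.
Fmr1: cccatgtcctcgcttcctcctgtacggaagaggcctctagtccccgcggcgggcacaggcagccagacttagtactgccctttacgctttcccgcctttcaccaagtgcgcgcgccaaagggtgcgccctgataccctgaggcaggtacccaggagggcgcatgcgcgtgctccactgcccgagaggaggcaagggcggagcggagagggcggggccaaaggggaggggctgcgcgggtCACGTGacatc
The E-box letters read the same on both strands and occur in 6.02% of the 32851 RefSeq promoters of this length. The window also holds 2 GC boxes (GGGCGG, either strand), which 32.7% of all promoters hold and 57.3% of those of genes above background. A match of letters is a description and shows no binding.

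Across all genes the differences were small and more often upward. In KO cultures 859 genes were higher (4.72% of those tested) and 300 lower (1.65%), so 74.1% of the calls were higher. If no gene differed, a share of 0.05 would pass on average, over both directions together. With each array centred on its own median the split moved to 1261 higher and 167 lower (88.3%), and centred on the median of the probe sets above background to 697 and 336 (67.5%). After adjustment for 18193 genes Fmr1 alone passed (0.0055%), and the next smallest adjusted p was 0.782, so each called gene named from here on had an adjusted p at or above that value. The median difference among called genes was 0.26 upward and 0.24 downward, against a median SD of a gene of 0.13 within KO and 0.16 within WT. Only 32 higher and 26 lower genes differed by 0.5 or more. All 5 KO arrays lay above all 5 WT arrays for 113 genes (0.621%) and below them for 52 (0.286%). The counts depended on single arrays. Without KO 2038 they dropped to 436 higher and 188 lower, and without WT 2236 there were 524 lower genes. Whichever array was left out, 330 of the higher and 107 of the lower genes still passed.

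**Figure D1:**
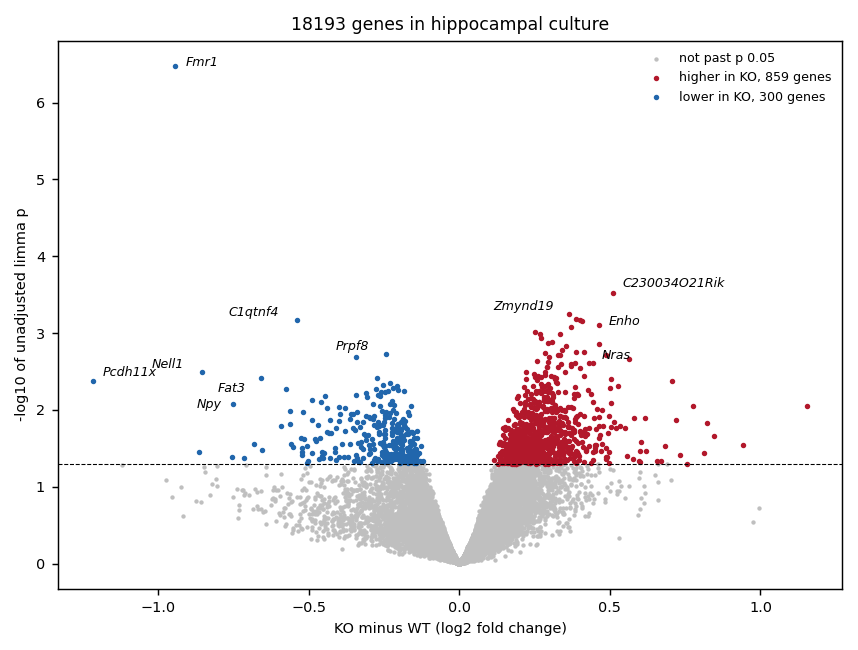
Difference between KO and WT hippocampal cultures (x axis, log2) against -log10 of the unadjusted limma p (y axis) for 18193 genes. Red points are the 859 genes called higher and blue points the 300 called lower, the dashed line marks the threshold of 0.05, and Fmr1 stands alone at the top.

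The 12 leading higher genes, those with the smallest p among genes above background, were low to moderate in level and moderate in shift. None of them belongs to the hand-written lists of signaling, synaptic or cell type genes. C230034O21Rik, an uncharacterised transcript, led with 7.94, 7.80, 7.69, 7.76 and 8.19 in KO and 7.50, 7.28, 7.21, 7.41 and 7.43 in WT, a difference of 0.51 (SE 0.10, exact p = 0.00794). Zmynd19, a zinc finger protein, had 7.35, 7.67, 7.62, 7.45 and 7.59 in KO and 7.24, 7.28, 7.12, 7.14 and 7.08 in WT, a difference of 0.36 (SE 0.08, exact p = 0.00794). In both genes every KO array lay above every WT array. The same separation held for Fam185a (0.39), Clgn (0.40), which encodes the endoplasmic reticulum chaperone calmegin, and Mindy4 (0.41), of a deubiquitinase family. Mindy4 was above background in KO only (5.54, against 5.13 in WT). Zbtb34 (0.37), Impa1 (0.33), 1700066M21Rik (0.31), Denr (0.30), Tspan2 (0.27) and Tiprl (0.27) were separated as well. The other Tspan2 probe set above background differed by 0.02 and did not pass, while the one below background rose by 0.31. Impa1 encodes the inositol monophosphatase that lithium inhibits, Denr a factor for translation reinitiation and Tiprl a regulator of PP2A-type phosphatases. Enho, which encodes the secreted peptide adropin, was the exception. Its KO arrays read 8.63, 8.71, 8.54, 8.23 and 8.69 and its WT arrays 8.02, 8.29, 8.07, 7.93 and 8.15, so KO 2620 fell within the WT range. Enho rose by 0.47 (SE 0.10, exact p = 0.0159), and of its 3 other probe sets 1 rose by 0.39 and the others differed by 0.02 and 0.03. All 12 genes passed whichever array was left out.

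The leading lower genes after Fmr1 included the cadherin family members Pcdh11x and Fat3. Pcdh11x, an X-linked protocadherin at chrX:120290238-120910622, read 8.94, 8.73, 9.47, 9.73 and 9.17 in KO and 10.24, 9.86, 11.76, 10.37 and 9.87 in WT. The groups did not overlap, although WT 2644 lay far above the other WT arrays. The fall was 1.21 (SE 0.34, exact p = 0.00794), the largest of all called lower genes, and the second probe set passed with the same fall of 1.21. Nell1, a secreted protein with EGF-like repeats, read 8.34, 8.72, 8.66, 8.92 and 8.66 in KO and 9.45, 9.13, 10.31, 9.77 and 8.92 in WT, and fell by 0.85 (SE 0.23, exact p = 0.0159). Fat3, a giant cadherin that shapes dendrites, read 10.28, 9.79, 9.94, 10.26 and 10.26 in KO and 10.51, 10.25, 10.92, 11.28 and 10.87 in WT, and fell by 0.66 (SE 0.18, exact p = 0.0317). The groups touched or overlapped in these 2 genes through a single WT array each. The secreted protein gene C1qtnf4 fell by 0.54 (SE 0.12, exact p = 0.0159), with KO 2620 at 8.34 inside the WT range and the other KO arrays at 7.85 to 7.99. Tmem132a (-0.34), Ckmt1 (-0.27), the mitochondrial creatine kinase, Pkp4 (-0.25), a junction protein, Prpf8 (-0.24), Trnp1 (-0.22) and C230037L18Rik (-0.21) had every KO array below every WT array. C230037L18Rik was above background in WT only (5.22, against 5.01 in KO). In Tjap1 (-0.28), a tight junction associated protein, the groups overlapped. These 12 genes, Fmr1 included, passed whichever array was left out.

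**Figure D2:**
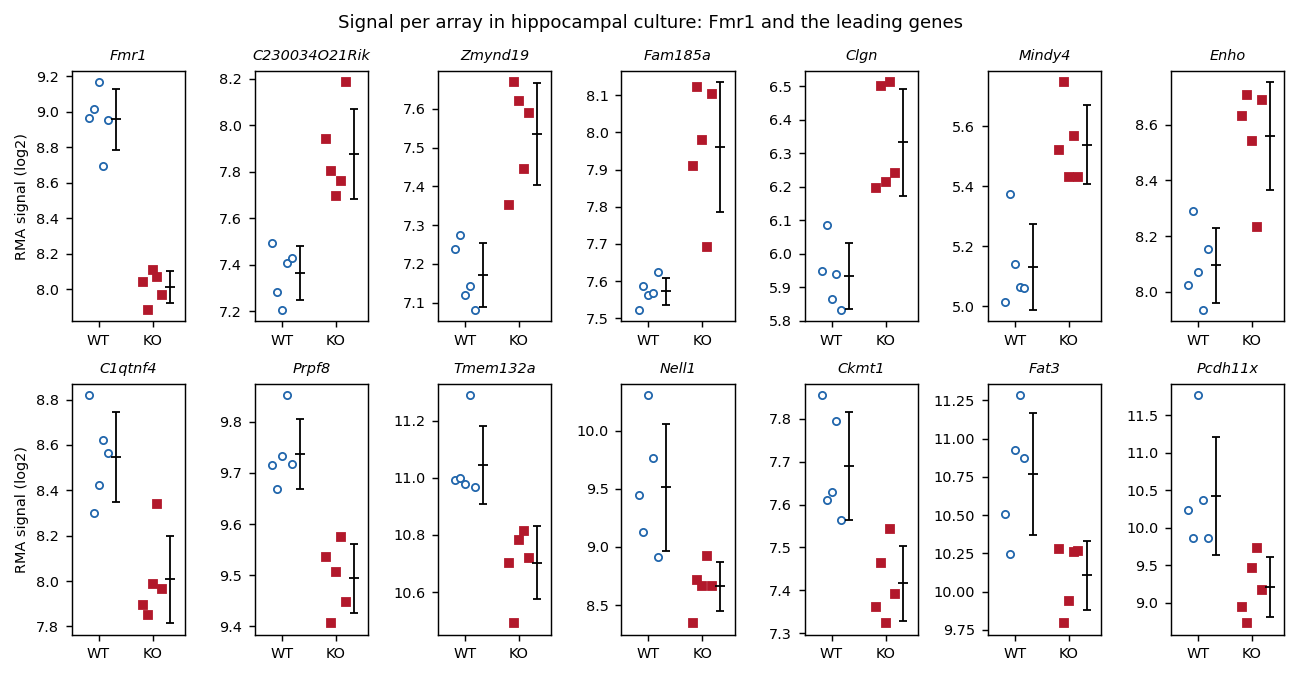
RMA signal (y axes, log2, a separate range for each gene) of Fmr1, the 6 leading higher genes and 7 leading lower genes. Open blue circles are WT arrays, filled red squares KO arrays, and bars the mean ± SD of 5 arrays. The KO and WT points overlap for Enho, C1qtnf4, Nell1 and Fat3 and are apart for the other genes.

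The called lower genes were longer than the others. Among genes above background with a RefSeq position, the median span was 49.3 kb for the lower genes, 22.7 kb for the higher genes and 24.8 kb for those that did not pass. Lower calls made up 3.29% of the 2370 genes with the longest spans (77.8 to 2390 kb) and 1.06% to 1.69% of each of 4 classes of 2369 shorter genes. The median difference in the longest class was 0.00, against 0.02 to 0.04 in the others, below the median SD of a gene within either genotype. Pcdh11x, Nell1 and Fat3 belong to the longest class.

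The receptor of the mGluR theory did not differ detectably. Grm5, which encodes mGluR5, read 10.44, 10.71, 10.82, 10.59 and 10.65 in KO and 10.94, 10.65, 10.32, 10.45 and 10.55 in WT. The groups overlapped throughout, the difference was 0.06, and its 95% interval ran from -0.19 to 0.31. Of the scaffolds that tie the receptor to its stores and to the postsynaptic density, Homer1, Homer2, Homer3, Shank1, Shank3, Dlgap1 and Dlg4 were measured, and none of the 7 passed. Their differences ran from -0.24 for Shank3 to 0.22 for Homer3. Shank1 was below background. Among the 6 G proteins, phospholipases and their regulators, Gnaq, the Gq alpha subunit, was higher. It read 11.14, 11.02, 11.06, 10.93 and 11.21 in KO and 10.92, 11.03, 10.62, 10.82 and 10.91 in WT. All 6 other probe sets of Gnaq also had positive differences, from 0.11 to 0.29, and 1 of them passed. The rise of Gnaq was 0.21 (SE 0.09, exact p = 0.0238), but it lost its call without KO 2037, KO 4236, WT 2644 or WT 3569 (largest limma p 0.0762). Gna11 (0.14), Plcb1 (0.24), Plcb3 (-0.02), Plcb4 (0.03) and Rgs4 (-0.03) did not pass, and for Rgs4, a brake on Gq signaling, the interval ran from -0.96 to 0.90. Over the 22 measured genes of the route from receptor to phospholipase C and calcium stores, 1 was higher and none lower (4.55%, against 4.72% of all genes), with a median difference of 0.05 against 0.01 for all genes. The list did not keep a direction, since its median was -0.03 with 1 lower gene without WT 2644, and 0.12 with no call without WT 3569. It had 3 higher genes without KO 2620, 2 without WT 2643 or WT NT and none without KO 2037 or KO 4236.

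On the RAS to ERK route the clearest gene was Nras, a RAS GTPase (chr3:103058285-103067914). It read 9.46, 9.62, 9.64, 9.20 and 9.51 in KO and 9.12, 9.31, 9.10, 8.78 and 8.89 in WT. Only KO 2620 fell within the WT range. Nras rose by 0.44 (SE 0.11, exact p = 0.0159), and its other probe sets differed by 0.32, which passed, and by 0.13. On the probe sets used, the related GTPases Rap1a (0.18), Rap1b (0.17), Mras (0.13), Rras2 (0.08) and Rras (-0.07) did not pass. A dimmer probe set did pass for Rap1a (0.26) and for Rap1b (0.28), and the remaining Rap1b probe set differed by 0.11 and did not. Downstream, the kinases showed little. Araf (0.19), Braf (-0.02), Map2k1 (0.08), Map2k2 (0.03) and the scaffold Ksr1 (0.00) did not pass, nor did Rps6ka3 (-0.19), Mknk1 (-0.08) and Mknk2 (0.21). Rps6ka6, an X-linked member of the ribosomal S6 kinases that ERK activates, was the exception. It read 8.75, 8.81, 8.64, 8.60 and 8.99 in KO and 8.55, 8.42, 8.37, 8.60 and 8.20 in WT, and rose by 0.33 (SE 0.10, exact p = 0.0159). The adaptor Crk was higher by 0.24 (exact p = 0.0397) and the RAP exchange factor Rapgef1 lower by 0.25 (exact p = 0.0556). Crk lost its call without KO 2038, KO 4236, WT 2236, WT 3569 or WT NT, and Rapgef1 without KO 2038, KO 2221, KO 4236, WT 2236, WT 3569 or WT NT, while Nras and Rps6ka6 passed throughout. All 9 measured brakes and GTPase activators had negative differences, from -0.38 to -0.05, and none passed. Over 38 genes of the cascade 3 were higher (7.89%, against 4.72% of all genes) and 1 lower (2.63%, against 1.65%), with a median of -0.03. The median was 0.04 without WT 3569 and 0.01 without KO 2221, and the higher count was 5 without WT 2644 and 2 without KO 2038, KO 4236, WT 2236 or WT NT.

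**Figure D3:**
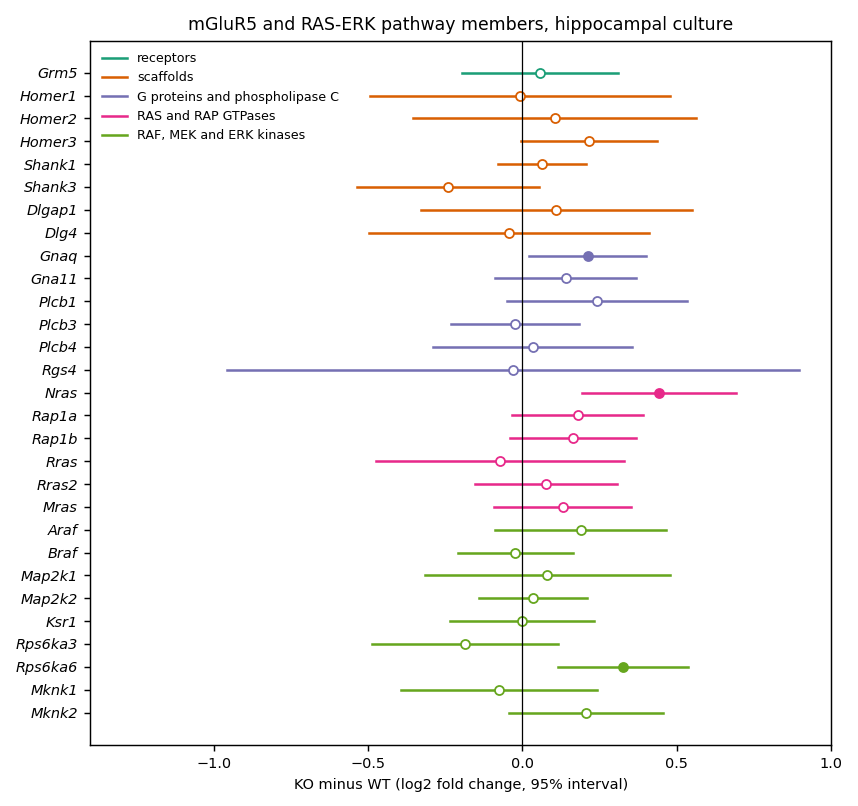
Difference between KO and WT hippocampal cultures (x axis, log2) with its 95% interval for mGluR5, its scaffolds, G proteins and phospholipases, and for RAS, RAP, RAF and MEK family members (y axis, colours by role). Filled points passed the unadjusted threshold, which Gnaq, Nras and Rps6ka6 did, and all other intervals include 0.

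On the PI3K to mTOR route 1 of 34 measured genes passed. It was lower (2.94%, against 1.65% of all genes), and none was higher (0%, against 4.72%). Pik3cd, a PI3K catalytic subunit, read 11.60, 11.68, 11.75, 11.67 and 11.66 in KO and 11.91, 11.84, 11.97, 11.77 and 11.90 in WT, with no overlap, and fell by 0.20 (SE 0.06, exact p = 0.00794). Its other probe set above background, at 6.09 in KO and 5.93 in WT, differed by 0.15 in the opposite direction and did not pass. The remaining Pik3cd probe sets were below background in both genotypes, with means of 3.87 to 4.39. The fall therefore rests on 1 probe set. The 23 measured genes listed for AKT, TSC and RHEB, for the mTOR complexes and for its translation targets had no call in either direction. That list holds Tsc1 and Tsc2 and not Tbc1d7, the other subunit of the TSC complex, which was higher and is described with the autism candidate genes. The median over the 34 genes was 0.04.

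Among receptors and effectors of synaptic plasticity each list had at most 1 call in each direction. The shares higher and lower were 10% and 10% of the receptor subunits and 3.85% and 3.85% of the calcium and cAMP genes. They were 0% and 20% of the neurotrophin and adhesion receptor genes, against 4.72% and 1.65% of all genes. Of 10 measured NMDA and AMPA receptor subunits, Grin3a, an NMDA receptor subunit of developing synapses, was higher by 0.35 (SE 0.13, exact p = 0.0397), and the AMPA receptor subunit Gria3 was lower by 0.22 (SE 0.09, exact p = 0.0635). Each had overlapping groups. Grin3a lost its call without KO 2038, KO 4236 or WT 2644, and Gria3 in 7 of the 10 fits that left out an array. The other Gria3 probe set fell by 0.33 and passed over the 10 arrays. The other Grin3a probe set above background differed by 0.14 and did not pass. Of 26 genes of calcium and cAMP signaling, the calcineurin subunit Ppp3cb was higher by 0.23 (exact p = 0.0556). Its call failed in 6 of the 10 fits that left out an array. Other Ppp3cb probe sets above background differed by 0.22 and 0.34, which passed, and by 0.09, which did not. In the same list Crebbp, the CREB-binding protein, was lower by 0.27 (SE 0.09, exact p = 0.0317) and passed in all 10 fits. Crebbp read 9.76, 9.57, 9.64, 10.004 and 9.84 in KO and 10.20, 10.04, 10.08, 9.89 and 9.94 in WT. Its other probe sets above background differed by -0.54 to -0.07, and none passed. Of 5 neurotrophin and adhesion receptor genes, Ntrk3, the receptor TrkC, was lower by 0.16 (SE 0.06, exact p = 0.00794), from 9.63 to 9.69 in WT to 9.39 to 9.62 in KO with no overlap, and passed in all 10 fits. None of the 20 measured immediate early genes, which follow neuronal activity, passed. Their median was -0.26, but it was 0.14 without WT 3569, whose members averaged 1.54 above the mean of the arrays.

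Genes of young postmitotic neurons leaned upward. Of 27 measured, 25 had positive differences, with a median of 0.20 against 0.03 for all genes above background, and 4 were higher (14.8%, against 4.72% of all genes and 6.47% of those above background), with none lower. Stmn1, the microtubule regulator stathmin, read 12.77, 12.99, 13.04, 12.80 and 12.89 in KO and 12.72, 12.91, 12.31, 12.42 and 12.46 in WT, and rose by 0.33 (SE 0.11, exact p = 0.0397). WT 2236 and WT 2643 lay within the KO range and the other WT arrays below it. Stmn2 (0.35, exact p = 0.0635), the surface protein Cd24a (0.35, exact p = 0.0794) and the RNA-binding protein Elavl2 (0.30, exact p = 0.0714) were also higher, but each passed in only 3 of the 10 fits that left out an array, whereas Stmn1 passed in all. Without WT 2644, whose members averaged 0.46 below the mean of the arrays, the list had 1 higher gene and a median of 0.14. It likewise had 1 without KO 2038, KO 2221, KO 2620 or KO 4236, 2 without WT 3569, 9 without WT 2236 and 8 without WT 2643. In these mixed cultures fewer cells of a type and less RNA per cell cannot be told apart. The 10 tubulin genes above background had a mean level higher in every KO array than in every WT array, though WT 2643 (0.02) and KO 2620 (0.02) nearly met, by 0.13 on average, and Tubg1, the gamma tubulin of microtubule nucleation, rose by 0.27 (SE 0.09, exact p = 0.0238) in that group. Of all 11 measured tubulins 1 was higher (9.09%, against 4.72% of all genes). Their median was 0.12, and 0.07 without WT 2644, and the number higher was 3 without KO 2037, WT 2236 or WT 2643.

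Axon guidance genes went both ways. Of 66 measured, 4 were higher (6.06%, against 4.72% of all genes) and 4 lower (6.06%, against 1.65%), with a median of -0.02. Sema4f, a semaphorin, read 10.22, 10.34, 10.31, 10.15 and 10.38 in KO and 10.14, 10.15, 9.52, 9.57 and 10.02 in WT, so every KO array lay above every WT array, if barely for WT 2643. It rose by 0.40 (SE 0.13, exact p = 0.00794). Limk1, a kinase that acts on the actin filament through cofilin, rose by 0.40 (SE 0.15, exact p = 0.0238), with overlapping groups. Its other probe set above background differed by 0.09 and did not pass. Sema4f and Limk1 passed whichever array was left out. Pak3 (0.24) and Sema6d (0.21) were higher, and the repellent Sema3a (-0.48), its co-receptor Plxna4 (-0.41), the ephrin Efna5 (-0.50) and Robo2 (-0.45) were lower, but each of these 6 lost its call in at least 3 of the 10 fits. Robo2 was below background in both genotypes. Over the fits that left out an array the higher count ran from 2 (KO 2038, KO 2221 or WT 2644) to 7 (WT 2236 or WT 2643), and the lower count from 0 (KO 2038) to 5 (KO 2620).

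Among the interneuron markers 2 genes passed, in opposite directions, and the largest upward difference of the list, 0.66, did not pass. Npy, the neuropeptide Y gene of a class of interneurons, read 6.93, 6.81, 6.44, 6.53 and 6.67 in KO and 6.82, 6.96, 8.20, 7.77 and 7.39 in WT. Its KO arrays lay close together and its WT arrays were spread widely. Npy fell by 0.75 (SE 0.23, exact p = 0.0159) and passed in all 10 fits. The other direction was taken by Lhx6, a transcription factor of interneurons from the medial ganglionic eminence, which was higher by 0.60 (SE 0.27, exact p = 0.0952) and passed in only 3 of the fits. Of 15 measured interneuron genes, with a median of 0.24 and 12 positive differences, these were the only calls over the 10 arrays (6.67% in each direction, against 4.72% and 1.65% of all genes). Without KO 2620 the list had 5 higher genes, without WT 2643 it had 3, and without WT NT it had 2. Without any 1 of the other 7 arrays it had no higher gene. Among 35 genes of mature neurons and synapses the vesicular glutamate transporter Slc17a6 was higher by 0.68 (SE 0.27, exact p = 0.0556), a call lost without KO 2038, KO 4236, WT 2644 or WT NT, and no other gene passed. The share higher was 2.86%, against 4.72% of all genes. The median of that list was 0.03, and without WT 2644 it was -0.10 with 6 lower genes.

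Cholesterol synthesis had the highest share of higher genes of the hand-written lists over the 10 arrays, but not in every setting. Without KO 2037, KO 2620, WT 2236 or WT 2643, with arrays centred on their medians and in the fits over 20 or 42 arrays, the tubulin, interneuron or young neuron list had a higher share. Of 24 measured, 6 were higher and 1 lower, with a median of 0.17. The share higher was 25%, against 4.72% of all genes and 6.47% of those above background. All 7 measured genes of the mevalonate and isoprenoid steps had positive differences, with a median of 0.29, and 4 of them passed. Hmgcs1, which makes HMG-CoA at the entry of the pathway, read 13.23, 13.23, 13.12, 13.16 and 13.27 in KO and 13.11, 13.00, 12.82, 12.95 and 13.14 in WT, and rose by 0.20 (SE 0.07, exact p = 0.0159). Its 4 other probe sets had positive differences of 0.14 to 0.39, and 3 of them passed. Idi1, the isomerase of the isoprenoid unit, read 10.89, 10.68, 10.55, 10.47 and 10.94 in KO and 10.40, 10.24, 10.13, 10.54 and 10.59 in WT, and rose by 0.33 (SE 0.12, exact p = 0.0397). The next steps showed the same direction. Fdps, farnesyl diphosphate synthase, rose by 0.49 (SE 0.21, exact p = 0.0317), and Fdft1, squalene synthase, by 0.36 (SE 0.13, exact p = 0.0317). Nsdhl, a later demethylation enzyme, rose by 0.37 (SE 0.16, exact p = 0.0476). The sixth higher gene, Mvk, mevalonate kinase, was named after its values were seen and rose by 0.29. Scap, the escort of the SREBP transcription factors, was lower by 0.23 (SE 0.09, exact p = 0.0476).

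In Hmgcs1, Idi1, Fdps, Fdft1, Nsdhl and Scap the KO and WT arrays overlapped. The mean level of the 24 genes was 0.13, 0.10, -0.13, 0.15 and 0.17 in the KO arrays and 0.01, -0.16, -0.45, 0.12 and 0.05 in the WT arrays, relative to the mean of the 10. WT 2644 was the lowest. Without it 4 genes were higher and 1 lower, with a median of 0.11. The number higher was 3 without KO 2038, KO 4236 or WT 2643, 4 without KO 2037 or KO 2620, and 8 without WT NT. Hmgcs1, Idi1 and Fdft1 passed in all 10 fits, Fdps failed without KO 2037, KO 2038, KO 4236 or WT 2643, and Nsdhl failed without KO 2038, KO 2620, KO 4236, WT 2643 or WT 2644. The levels of the astrocyte, matrix and cell cycle lists also ran apart in WT 2644 (0.28, 0.87 and 0.77), and their part in these differences was not tested.

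The promoters of 3 of the higher cholesterol genes are shown because genes of this pathway are known to share control by SREBP together with the CCAAT-binding factor NF-Y. Each is the 250 bases before the RefSeq start on the plus strand of GRCm38.p6, at chr13:119690101-119690350 for Hmgcs1, chr13:8885356-8885605 for Idi1 and chrX:72918271-72918520 for Nsdhl, and capitals mark CCAAT on either strand, here read as ATTGG.
Hmgcs1: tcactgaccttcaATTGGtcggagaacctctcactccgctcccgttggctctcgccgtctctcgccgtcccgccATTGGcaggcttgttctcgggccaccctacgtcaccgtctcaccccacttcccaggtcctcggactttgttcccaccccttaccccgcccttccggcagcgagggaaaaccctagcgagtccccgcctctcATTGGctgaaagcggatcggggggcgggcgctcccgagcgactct
Idi1: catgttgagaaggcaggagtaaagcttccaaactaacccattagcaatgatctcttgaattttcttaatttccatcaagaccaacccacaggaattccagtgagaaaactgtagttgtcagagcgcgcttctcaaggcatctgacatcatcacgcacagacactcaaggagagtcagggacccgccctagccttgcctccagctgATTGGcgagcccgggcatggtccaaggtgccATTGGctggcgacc
Nsdhl: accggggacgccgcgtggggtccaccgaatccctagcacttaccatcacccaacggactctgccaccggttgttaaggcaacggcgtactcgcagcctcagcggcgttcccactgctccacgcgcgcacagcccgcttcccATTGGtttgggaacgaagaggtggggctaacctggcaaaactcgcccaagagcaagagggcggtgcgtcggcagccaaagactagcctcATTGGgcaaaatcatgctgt
Hmgcs1 holds 3 such boxes and Idi1 and Nsdhl 2 each. CCAAT was found in all 4 of the 6 higher cholesterol genes that have a promoter in the RefSeq table, in 20 of the 28 promoters (71.4%) of the measured cholesterol genes in 60% of the 30 promoters of the young neuron genes and in 33.8% of all promoters. The SREBP-type letters TCACNCCAC, searched on both strands, occur 1 time in Hmgcs1, 137 bases before the start, in no other of the 28 promoters of the cholesterol genes (3.57%), in 1 of the 30 of the young neuron genes (3.33%) and in 1.05% of all promoters. These are matches of letters in a window, and no binding was measured.

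Genes of protein turnover leaned upward by small amounts. Of 59 measured ubiquitin and proteasome genes 50 had positive differences (84.7%, against 58.1% of genes above background), 8 were higher (13.6%, against 6.47%) and 1 lower (1.69%, against 1.73%), with a median of 0.10 against 0.03. All 14 genes of the proteasome core were positive, by 0.04 to 0.20. Psma6, a subunit of the core, rose by 0.20 (SE 0.07, exact p = 0.0238). Psmc6, an ATPase of the regulatory particle, read 10.34, 10.28, 10.22, 10.26 and 10.41 in KO and 10.15, 10.09, 10.18, 10.18 and 10.10 in WT, with no overlap, and rose by 0.16 (SE 0.06, exact p = 0.00794). Both passed in all 10 fits, and both other probe sets of Psmc6 above background also passed. Cul5, a ubiquitin ligase scaffold, rose by 0.20 (exact p = 0.0159) on its brightest probe set, while its other probe sets differed by -0.06 and -0.16. The conjugating enzymes Ube2g1 (0.21, exact p = 0.0317) and Ube2d1 (0.29, exact p = 0.0556) were higher, and lost their calls without KO 2038, KO 4236 or WT 2644, and Ube2d1 also without WT NT. The ligase Huwe1, X-linked, ran against the list. It read 9.45, 9.09, 9.55, 9.57 and 9.47 in KO and 9.68, 9.65, 9.61, 9.82 and 9.69 in WT, with no overlap, and fell by 0.26 (SE 0.09, exact p = 0.00794). Its other probe sets above background differed by -0.11 to -0.09, and none passed. Without KO 2038 or KO 4236 the list had 3 higher genes, and without KO 2037 or WT 2644 it had 5.

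Splicing, ribosomal and respiratory genes had shares of calls no greater than those of all genes, 4.72% higher and 1.65% lower. The shares were 4.55% and 1.52% for spliceosome genes, 2.33% and 0% for ribosomal genes and 2.86% and 0% for respiratory genes. Of 66 spliceosome genes, Bcas2 (0.23, exact p = 0.00794), Snrpf (0.21, exact p = 0.0238) and Snrnp27 (0.17, exact p = 0.0317) were higher and Prpf8, the largest protein of the catalytic core, was lower. Prpf8 read 9.54, 9.41, 9.51, 9.58 and 9.45 in KO and 9.72, 9.67, 9.73, 9.85 and 9.72 in WT, with no overlap (difference -0.24, SE 0.06, exact p = 0.00794). Bcas2 and Prpf8 passed in all 10 fits, whereas Snrpf passed in 4 and Snrnp27 in 3. Of 43 cytosolic ribosomal genes 39 had positive differences (90.7%, against 58.1% of genes above background), with a median of 0.06 that was 0.02 without WT 2644, and Rpl14 was higher (0.31, SE 0.10, exact p = 0.0238). Of 35 genes of mitochondrial respiration Sdhc, a subunit of complex II, was higher (0.16, exact p = 0.0238), in 5 of the 10 fits.

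Basement membrane and matrix genes leaned the other way. Of 32 measured, 29 had negative differences, with a median of -0.36, and 4 were lower and none higher (12.5% lower against 1.65% of all genes). Col4a2, a chain of the collagen that underlies epithelia and vessels, read 8.34, 7.93, 8.14, 8.30 and 7.85 in KO and 8.07, 8.65, 9.18, 8.61 and 8.85 in WT, and fell by 0.56 (SE 0.18, exact p = 0.0317). Only WT 2236 fell within the KO range. Its partner chain Col4a1 fell by 0.51 (SE 0.23, exact p = 0.0714), the laminin Lama5 by 0.52 (SE 0.21, exact p = 0.0556) and the collagen prolyl hydroxylase P4ha1 by 0.46 (SE 0.20, exact p = 0.0635). Col4a2 passed in all 10 fits, and the others failed in 3 to 7. The list level was -0.04, -0.05, -0.14, 0.03 and -0.70 in the KO arrays and -0.26, 0.23, 0.87, -0.19 and 0.25 in the WT arrays. WT 2644 was thus the highest and KO 4236 the lowest. Without WT 2644 the list had 1 lower gene and a median of -0.18, and without KO 4236 it had 1 and -0.23. It had 2 without KO 2038, KO 2221 or WT NT, 7 without WT 3569 and 10 without WT 2236.

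**Figure D4:**
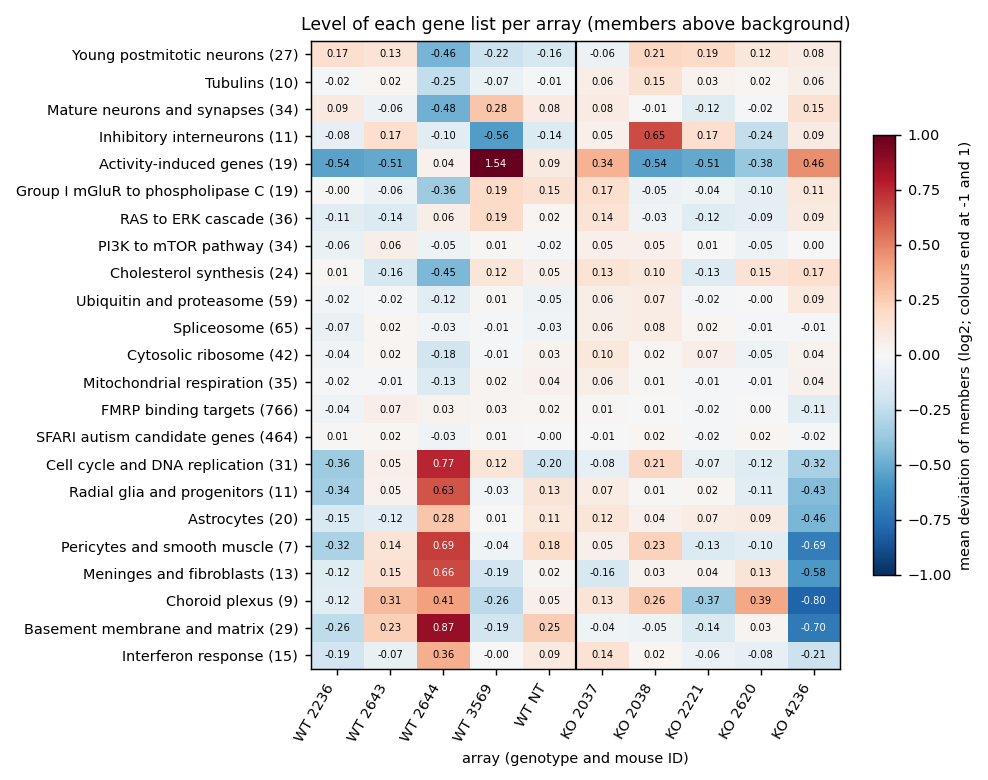
Mean deviation of the members of 23 gene lists above background (rows, number of members in parentheses) from the mean of the 10 hippocampal culture arrays (columns, WT left of the line), in log2 with the value printed in each cell and colours ending at -1 and 1. WT 2644 reads high in cell cycle (0.77) and matrix (0.87) genes and low in young neuron genes (-0.46), KO 4236 reads low in choroid plexus (-0.80) and matrix (-0.70) genes, and WT 3569 is high in activity-induced genes (1.54).

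Several marker lists of the other cells in the dish moved with these same arrays. KO 4236 was low in the astrocyte list (-0.46), in meninges and fibroblasts (-0.58), in pericytes and smooth muscle (-0.69) and in choroid plexus (-0.80), whereas WT 2644 was high in the first 3 (0.28, 0.66 and 0.69) and in choroid plexus (0.41). In KO 4236 and WT 2644 the microglia list was at 0.10 and -0.02, and the oligodendrocyte lineage list at 0.03 and 0.22. Of 22 astrocyte genes Sparcl1, the secreted synapse protein hevin, was lower by 0.46 (SE 0.19, exact p = 0.0556), a call lost without KO 2038, WT 3569 or WT NT. Of 19 meningeal and fibroblast genes Col6a1 was lower by 0.56 (SE 0.20, exact p = 0.0317). No gene passed among 14 of radial glia, 17 of microglia, 13 of endothelium, 11 of pericytes, 16 of choroid plexus or 34 of the cell cycle. The cell cycle list had a median of -0.14, which was 0.02 without WT 2644. In the 17 oligodendrocyte lineage genes Nkx2-2 was lower by 0.21, below background in both genotypes. Single lower genes among 25 of the interferon response (Tap1, -0.55) and 23 of stress (Sesn2, -0.45), and P4ha1 with the neuronal glucose transporter Slc2a3 (-0.23) among 19 of hypoxia, each lost their call when 1 or another of at least 3 arrays was left out. The lower genes were 4.55% of the astrocyte, 5.26% of the meningeal and 5.88% of the oligodendrocyte lineage list. They were 4% of the interferon, 4.35% of the stress and 10.5% of the hypoxia list, against 1.65% of all genes. The part of cell composition in any of these differences was not tested.

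Published FMRP targets, in the list given in the study's supplement, leaned slightly downward. Of 819 measured, 766 were above background. Of the 819, 15 were higher (1.83%, against 4.72% of all genes and 6.47% of those above background). Another 26 were lower (3.17%, against 1.65% and 1.73%), and 516 had negative differences, with a median of -0.04. These counts depend on the scaling. With each array centred on its median 24 targets were higher and 16 lower, against 1261 and 167 of all genes. In that setting the share of targets called higher was still below that of all genes. The share called lower was still above it. The higher count ran from 9 without KO 2038 to 26 without WT 2643, and the lower count from 14 without KO 2038 to 48 without WT 2236. Fat3 and Prpf8 led the lower targets. Galnt18, which starts O-linked sugar chains, read 9.13, 9.36, 8.91, 9.78 and 9.24 in KO and 9.84, 9.67, 9.62, 9.86 and 9.63 in WT, and fell by 0.44 (SE 0.14, exact p = 0.0317). The giant ubiquitin ligase Herc1 fell by 0.19 (exact p = 0.00794), with no overlap, and Znfx1, an RNA helicase-like antiviral protein, by 0.29 (exact p = 0.0159). Among the higher targets, Asb13 (0.37, exact p = 0.00794), of a ubiquitin ligase family, and Eapp (0.22, exact p = 0.00794), which binds E2F factors, had every KO array above every WT array. Rftn1 (0.52), which encodes the lipid raft protein raftlin, Wdr37 (0.30) and the ribosome biogenesis factor Rpf2 (0.28) were higher with overlapping groups. Rftn1 was above background in KO only (5.45, against 4.93 in WT). All these targets passed in all 10 fits. Over the whole list 5 higher and 11 lower targets did.

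Autism candidate genes of the SFARI list went both ways. Of 574 measured, 25 were higher (4.36%, against 4.72% of all genes) and 18 lower (3.14%, against 1.65%), with a median of 0.00, and 10 and 8 of them passed in all 10 fits. Centred on the array medians 38 were higher and 14 lower, against 1261 and 167 of all genes. Without KO 2038 the counts were 11 and 8, and without WT NT 15 genes were higher. Tbc1d7, a subunit of the TSC complex, read 8.15, 8.40, 8.08, 8.04 and 8.32 in KO and 7.76, 7.93, 7.72, 7.98 and 7.92 in WT, with no overlap, and rose by 0.34 (SE 0.09, exact p = 0.00794). Its dimmer probe set differed by -0.15. Stk39 (0.32, exact p = 0.00794) and Wnk3 (0.30, exact p = 0.00794), kinases that act on the same chloride cotransporters, were also higher, each without overlap. The Stk39 arrays read 8.21, 8.11, 8.26, 8.18 and 8.32 in KO and 8.06, 7.91, 7.70, 8.08 and 7.74 in WT. The other Stk39 probe set above background differed by 0.11 and did not pass. Mtx2, a mitochondrial import protein, was higher by 0.29 (exact p = 0.0159). The lower genes with the smallest p were Fmr1, Nell1, Sez6l2 (-0.23, exact p = 0.00794), Dscam (-0.32, exact p = 0.0238) and Crebbp. Sez6l2, a neuronal surface protein, was nearly constant in KO, at 11.003 to 11.07, against 11.15 to 11.52 in WT. Dscam, an adhesion molecule of dendrites and axons, also fell in cortical culture, by 0.42.

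The genes around Fmr1 were examined since a targeted allele can carry flanking sequence of the donor strain. Of 40 measured genes centred within 5 Mb of Fmr1 on chromosome X, 3 were higher (7.5%, against 4.72% of all genes) and 2 lower (5%, against 1.65%), with a median of 0.00. The higher genes were Cd99l2 (0.38), Eola1 (0.26) and Nsdhl, and the lower ones Ctag2 and Pnma3 (each -0.16), which were below background. For Cd99l2, a cell surface protein at chrX:71420060-71492866, the probe sets disagreed. The brightest rose from 8.82 in WT to 9.21 in KO (exact p = 0.00794), while 2 others fell by 0.62 and 0.52 and the last differed by -0.25. The direction for the gene therefore depends on the probe set. Over the 380 genes of chromosome X above background, 41 were higher (10.8%, against 6.47% of all genes above background) and 9 lower (2.37%, against 1.73%), with a median of 0.03.

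The same contrast was set beside those of cortical culture and of the embryonic hippocampus. Fmr1 differed by -0.90 in cortical culture and by -0.93 in primary hippocampus, and the difference of its KO effect from that in hippocampal culture was -0.05 (SE 0.18) and -0.02 (SE 0.11), and neither passed. On their own arrays, cortical cultures had 445 higher (2.45%) and 394 lower (2.17%) genes and primary hippocampus 127 (0.698%) and 195 (1.07%). The difference of the KO effect itself passed for 388 genes between the cultures (2.13%), 231 more positive (1.27%) and 157 more negative (0.863%) in hippocampal culture, and none passed after adjustment. With the mouse ID, which recurs in both cultures, as a block, 634 passed. The count was 257 without KO 4236 and 721 without WT 2236, and in the latter case 277 were more positive and 444 more negative. Against primary hippocampus 875 genes passed (4.81%), 640 more positive (3.52%) and 235 more negative (1.29%) in culture, none after adjustment, and 546 did without KO 2038. With each array centred on its median the split against primary hippocampus was 988 to 111. If no effect differed, a share of 0.05 of genes would pass on average, and the shares of 2.13% and 4.81% lie below that.

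Between the cultures, Fam185a was the gene above background with the smallest p of those more positive in hippocampal culture. It differed by 0.39 there and by -0.07 in cortical culture (difference 0.46, SE 0.13). H2-T18 (0.09 and -0.19), 4930507D05Rik (0.27 and -0.16), Gpr137c (0.23 and -0.14) and Zfp286 (0.31 and -0.10) followed. In hippocampal culture Gpr137c (5.33 in KO and 5.10 in WT) and Zfp286 (5.29 and 4.98) were above background in KO only. On the negative side stood Dhx16, an RNA helicase of splicing (-0.13 and 0.24), Rhbdf1, an inactive rhomboid (-0.32 and 0.38), Tjap1 (-0.28 and 0.09), 4933402J15Rik (-0.14 and 0.20) and the decapping factor Patl1 (-0.16 and 0.30). In hippocampal culture 4933402J15Rik was above background in WT only (5.28, against 5.14 in KO). For each of these 10 genes the KO effect had opposite signs in the 2 cultures. They were chosen for the smallest p of the difference, a choice that favours opposite signs. H2-T18, Dhx16, Patl1 and 4933402J15Rik did not pass between genotypes in hippocampal culture itself. The matrix list also ran opposite, with a median of -0.36 in hippocampal and 0.23 in cortical culture, and the effect differed for 5 of its 32 members, among them Col4a2 (-0.56 and 0.09, difference -0.65, SE 0.21) and Col4a1 (-0.51 and 0.31). Cholesterol genes had no call in cortical culture and a median of -0.04, and the effect differed for 2 of 24, Hmgcs1 (0.20 and -0.07, difference 0.26, SE 0.11) and Nsdhl (0.37 and -0.14, difference 0.52, SE 0.23).

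Against primary hippocampus the smallest p belonged to Enox2, an X-linked cell surface oxidase. It was higher by 0.37 in culture and differed by -0.17 in tissue (difference 0.54, SE 0.12). Med19, a Mediator subunit (0.39 and -0.03), Ctsc, the lysosomal protease cathepsin C (0.49 and -0.17), Immp1l (0.25 and -0.06) and Enho (0.47 and 0.02) were also more positive in culture. Within the cultures Ctsc was above background in KO only (5.21, against 4.72 in WT). C1qtnf4 (-0.54 and 0.04), Tmem132a (-0.34 and 0.05), Fat3 (-0.66 and 0.06), Tagln3 (-0.45 and 0.02) and Gm11267 (-0.36 and 0.37) were more negative. Nras, higher by 0.44 in culture, differed by 0.06 in tissue, where the difference of effects of 0.39 (SE 0.12) passed, and by 0.26 in cortical culture, where that of 0.18 (SE 0.16) did not. Pcdh11x differed by 0.14 in tissue (difference -1.35, SE 0.53, which passed) and by -0.35 in cortical culture (difference -0.86, SE 0.49, which did not).

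**Figure D5:**
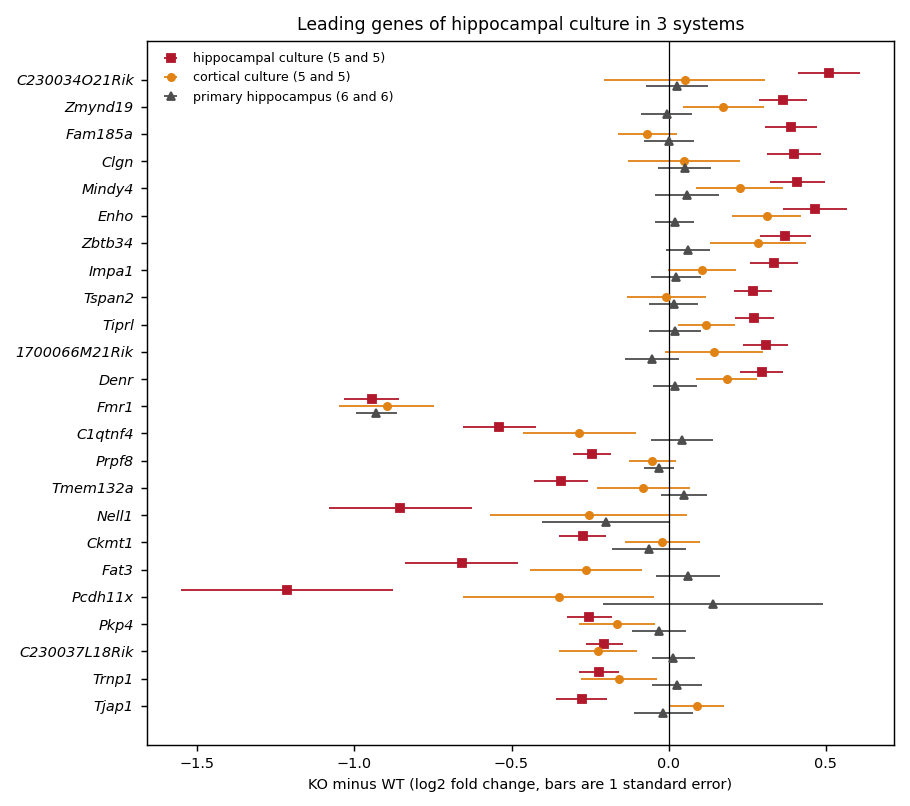
Difference between KO and WT (x axis, log2, bars 1 standard error) of the 24 leading genes of hippocampal culture (y axis) in hippocampal culture (red squares), cortical culture (orange circles) and primary hippocampus (grey triangles). The genes were chosen for their values in hippocampal culture, and only Fmr1 is near -0.9 in all 3 systems.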

How the data were processed

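Total RNA was hybridised to Affymetrix whole-genome mouse expression arrays. Per the labels and the study's methods, the authors computed the deposited log2 signals by RMA with the Affy package of R/Bioconductor, and which arrays were normalized together is not given in the sources used here. Scanner intensities were not used.

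Of 45101 probe sets 64 controls were left out, 34945 of the rest name 1 gene, 932 several and 9160 none, and only the first were named. The 5 KO and 5 WT hippocampal culture arrays were fitted alone with lmFit and eBayes (limma 3.58.1, R 4.3.3), as a difference of group means, after the study's unadjusted threshold of 0.05, with Benjamini-Hochberg values over 18193 genes. Differences of the KO effect between systems are interaction contrasts over both systems' arrays. Leave-one-out fits drop 1 array in turn. The exact permutation test runs over 252 splits. Tables were handled in Python 3.11.15 with pandas 2.3.3, and figures drawn with Matplotlib 3.10.9.

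Genes were named by rule: the target and its paralogs, the 12 genes above background with the smallest p in each direction, up to 5 called genes per direction in each list, preset receptor and kinase genes, and the 5 leading genes per direction of each interaction. The members and the 31 hand-written lists were chosen with earlier results of these data known. The fits were tested on simulated data first. Same-day handling of KO and WT pairs is described in the methods, no label gives a pair or a day, and KO and WT share no mouse ID, so no KO to WT block could be formed. The ID recurs across systems. Arrays of the same ID deviated together with r of -0.32 to 0.68 between the cultures and -0.08 to 0.13 between culture and primary hippocampus. The alternatives were other centring and normalization, other sample sets, variance settings, array weights and probe set rules. Precision is limited by the number of arrays.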

Additional observations from a re-analysis of the deposited data

Results flagged for a closer look

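Single arrays stood apart in 8 of 112 series of 5 arrays that were checked with Dixon's test, which flags about 1 in 20 groups by chance. For genes, Tspan2 was at 6.04 in KO 4236, against 5.86 to 5.91 in the other KO arrays. C1qtnf4 was at 8.34 in KO 2620, against 7.85 to 7.99, and this array lies nearest to WT. Tmem132a was at 11.29 in WT 3569, against 10.97 to 10.9996. Pcdh11x was at 11.76 in WT 2644, against 9.86 to 10.37. For mean list levels, relative to the mean of the 10 arrays, KO 2221 was at -0.13 in cholesterol synthesis, against 0.10 to 0.17 in the other KO arrays. KO 4236 was at -0.46 in astrocyte genes, against 0.04 to 0.12, at -0.70 in basement membrane and matrix genes, against -0.14 to 0.03, and at -0.11 in FMRP targets, against -0.02 to 0.01. The part of these arrays in the differences was not tested beyond the fits without them.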

How the results depend on the processing

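Fmr1 was lower by 0.89 to 1.01 in every setting run. Of 106 named genes that passed, 5 to 33 no longer did under another fit, scaling or set of arrays, and none of them changed sign. With the probe set of smallest p for each gene, Cd99l2 turned from 0.38 to -0.52. Named genes that did not pass could change sign as arrays were left out, such as Grm5 (-0.01 to 0.15) and Fxr2 (-0.19 to 0.04). The 859 higher genes became 1303 with the smallest p per gene, 0 after adjustment and 436 to 1176 as arrays were left out. The 300 lower genes became 485 in a fit over all 42 arrays, 167 with centring on array medians, 643 with the smallest p per gene, 1 after adjustment and 188 to 524 as arrays were left out. The fit over all arrays gave 6 adjusted calls, Fmr1, Enho, Nras, Ppp2r3c, Tbc1d7 and Zc4h2.

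With the mouse ID as a replicate block, the KO effect differed from cortical culture for 634 genes in place of 388, 310 of them shared, and from primary hippocampus for 703 in place of 875. The cortical culture count was 203 among genes above background, 0 after adjustment and 257 to 721 as arrays were left out. The primary hippocampus count was 0 after adjustment and 546 to 1284. The 20 genes named for these differences passed under every setting run, the block included. They were chosen for the smallest p in the main fit to the same arrays, so this is no independent check. No gene passed after adjustment in any of these settings. The cause of the shifts in the counts was not tested. With 5 pooled cultures per genotype and a median SD of 0.13 to 0.16, many small differences would not pass even the unadjusted threshold. The smallest difference that could be detected was not computed.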
